A study of Drosophila melanogaster with 3 samples.

Results

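A set of 8 genes of the heat shock and chaperone family were followed in single cells sorted from Drosophila melanogaster embryos. They are Hsp22, Hsp23, Hsp26, Hsp27, Hsp68, Hsp83, Hsc70-4 and DnaJ-1, chosen by name, and all 8 are among the 17509 genes of the unsexed matrix and the 17753 genes of the female and male matrices. Embryos were broken up with a Dounce homogenizer and GFP-positive cells were sorted by flow cytometry, so every cell had passed through a mechanical dissociation and a sort. The unsexed library came from vas-GFP embryos of 0 to 8 h and used version 2 of the 10x Genomics 3' kit. The female and the male library came from Sxl-GFP, vas-GFP embryos of 5 to 8 h and used version 3. Eggs were laid at 25°C, or at 18°C over a doubled period, and the labels do not say which temperature each library had. Each group is a single library, which leaves the differences without replicates and without a test, and intervals cover counting error only.

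Heat shock proteins are molecular chaperones: they hold, fold or hand on proteins that would otherwise clump. Most are switched on by the heat shock factor Hsf when cells meet heat or other stress, and some are also transcribed without stress in development. In unstressed flies, Hsp26, Hsp27 and Hsp83 are known for transcription in the nurse cells of the ovary, which load the egg with RNA, and maternal Hsp83 RNA is known to collect in the pole cells, the first germ cells. Hsp68 and the Hsp70 genes are known for low levels without stress. In dissociated cells a heat shock transcript can therefore come from the egg, from the embryo's own development or from the handling.

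Cells with unique molecular identifiers (UMIs, each counting 1 captured RNA molecule) for at least 3 of vas, nos, pgc, zpg, aub, CG17650 and CG14545 were taken as germ cells, and cells with none of these as other cells. Germ cells numbered 3198 of 3657 unsexed cells, 1073 of 9430 female cells and 4377 of 6329 male cells. Other cells numbered 214, 6500 and 1221. Median depth per cell was 16675.5, 18539 and 7718 UMIs in germ cells, against 3159.5, 6439 and 3250 UMIs in other cells. The labelled cell type held for most cells of the unsexed and male libraries, while other cells were the larger class in the female library. Summed levels of 68 markers of somatic cell types were 781, 1263 and 1004 CPM (UMIs scaled to the same total in every class) in germ cells, against 4084, 5317 and 4919 CPM in other cells. The neuronal marker elav stood at 24.6, 143 and 69.1 CPM in germ cells, against 218, 501 and 637 CPM in other cells. Of the 68 markers, 1 was at 0 in the germ cells of each library, and 11, 0 and 1 were at 0 in other cells. Germ cells were divided by pgc, a maternal transcript of the germ plasm that early germ cells hold and later lose, into low (under 100 CPM), middle and high (1000 CPM or more) cells. The low, middle and high classes held 1458, 853 and 887 unsexed cells, 746, 252 and 75 female cells and 2787, 1188 and 402 male cells. These classes are ranges of a measured level, with 624, 164 and 531 germ cells within 2-fold of the lower limit in the 3 libraries.

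The small heat shock proteins Hsp22, Hsp23, Hsp26 and Hsp27 bind unfolding proteins and keep them soluble. Their genes lie together on chromosome arm 3L of the BDGP6 assembly, between base 9372931, where Hsp22 (FBgn0001223) starts, and base 9385694, where Hsp27 (FBgn0001226) ends. Hsp23 (FBgn0001224) spans 9381882 to 9382765 and Hsp26 (FBgn0001225) spans 9376418 to 9377427. Hsp22, the mitochondrial one, had 0 UMIs in every class of every library. For scale, 3 UMIs would be 0.0568, 0.146 and 0.0856 CPM in the unsexed, female and male germ cells, which is no upper bound on Hsp22 RNA. All 1900 exonic bases of Hsp22 are shared on the same strand with CG4456, which had at most 24 UMIs in any class. Counters that ask for a unique gene give reads from shared bases to neither gene, so the level of Hsp22 RNA cannot be read from these counts. The 7 other members were measured, and every statement below is on those 7.

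Hsp23 had 1491, 2986 and 1394 CPM in pgc-low, pgc-middle and pgc-high germ cells of the unsexed library, and 1745 CPM in its other cells. In the female library it had 2704.5, 2266 and 1815 CPM over the same 3 levels, and 5955 CPM in other cells. In the male library it had 3356, 3079.7 and 2285 CPM, and 7589 CPM in other cells. Hsp23 was thus highest in pgc-middle cells of the unsexed library, and in both sexed libraries it was lowest in pgc-high germ cells and highest in other cells.

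Hsp26 had 3791, 6284 and 3294 CPM in pgc-low, pgc-middle and pgc-high cells of the unsexed library, and 1986 CPM in other cells. The female values were 2617, 2117 and 1849 CPM, with 3396 CPM in other cells. The male values were 2904, 2489 and 1894 CPM, with 5127 CPM in other cells. Its order was the same as that of Hsp23 in the sexed libraries, but in the unsexed library all 3 germ cell classes stood above other cells.

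Hsp27 had 796, 1364 and 1249.9 CPM in pgc-low, pgc-middle and pgc-high cells of the unsexed library, and 574 CPM in other cells. It had 982, 1042 and 1085 CPM in the female library, with 1187 CPM in other cells, and 1122, 1180.3 and 1253 CPM in the male library, with 1946 CPM in other cells. Hsp27 differed from the other small heat shock genes in being lower in pgc-low than in pgc-high cells in all 3 libraries. Hsp27 overlaps CR43483 on the opposite strand, and whether the counting used strand is not stated in the sources used here.

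Hsp68 (FBgn0001230, arm 3R, 24055080 to 24057310) encodes a heat-inducible protein of the Hsp70 family. Its levels were 99.2, 277 and 117 CPM in pgc-low, pgc-middle and pgc-high cells of the unsexed library, with 152 CPM in other cells. They were 396, 432 and 415 CPM in the female library, with 559.5 CPM in other cells, and 324, 363 and 359.8 CPM in the male library, with 553 CPM in other cells. Every class of the sexed libraries was above every class of the unsexed library. Hours, kit version and genotype differ between these libraries and cannot be told apart. Hsp68 overlaps lncRNA:CR44097 and CG6000 on the opposite strand.

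Hsc70-4 (FBgn0266599, arm 3R, 15242687 to 15246614) encodes the constitutive cytosolic Hsp70, which folds newly made proteins and strips clathrin coats. It had 2174, 2288 and 2146 CPM over the 3 pgc levels of the unsexed library, 1967, 2049 and 2065 CPM in the female and 1703, 1804.5 and 1793 CPM in the male library. Other cells held 2499.9, 2732 and 2585 CPM, above the germ cells of the same library each time. DnaJ-1 (FBgn0263106, arm 3L, 5750029 to 5752189) encodes an Hsp40 protein, which delivers clients to Hsp70 and starts its ATP cycle. DnaJ-1 had 302, 501 and 295 CPM over the pgc levels of the unsexed library, with 217 CPM in other cells. It had 312, 329.6 and 288 CPM in the female library, with 447 CPM in other cells, and 274, 301 and 279.8 CPM in the male library, with 402 CPM in other cells. Among unsexed germ cells both genes were highest at the middle pgc level, though for Hsc70-4 the 3 pgc levels of a library lay close together.

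Hsp83 (FBgn0001233, arm 3L, 3192969 to 3197059) encodes the fly Hsp90, which matures kinases, receptors and other clients. It had 2550.4, 3330.3 and 2937 CPM in pgc-low, pgc-middle and pgc-high cells of the unsexed library, and 1259 CPM in other cells. It had 3222, 3386 and 3169.9 CPM in the female library, with 3088 CPM in other cells, and 3718, 3834 and 3410.0 CPM in the male library, with 3937 CPM in other cells. In germ cells Hsp83 stood above other cells in the unsexed library, and near their level in the sexed ones. Hsp83 overlaps CG14966 on the opposite strand.

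**Figure D1:**
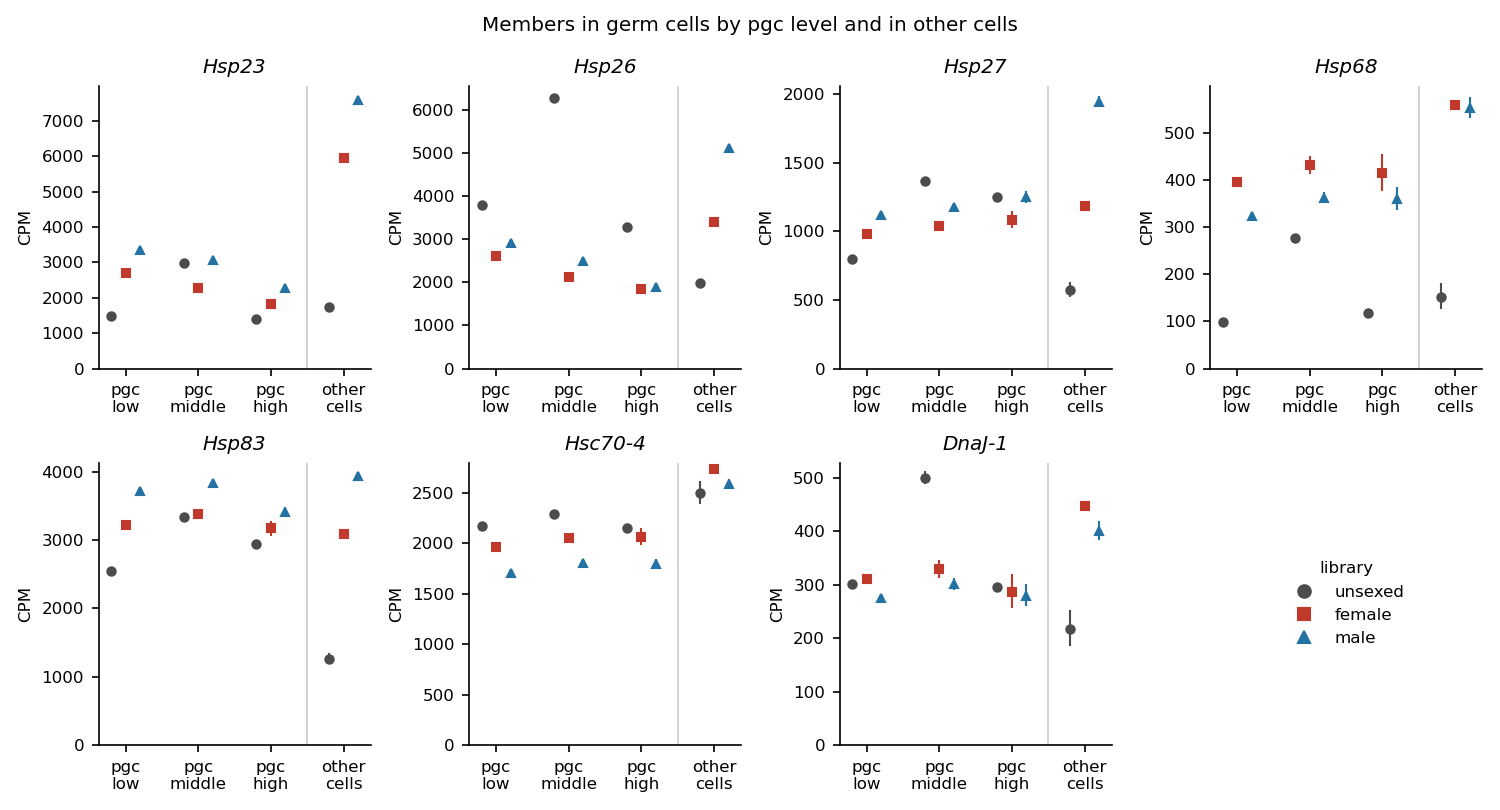
CPM of the 7 measured members (vertical axes from 0, one panel each) in pgc-low, pgc-middle and pgc-high germ cells and in other cells, with the 3 libraries as point shapes and exact 95% Poisson intervals as bars. Hsp26 reaches 6284 CPM in the unsexed pgc-middle cells, Hsp23 reaches 7589 CPM in male other cells, and Hsc70-4 lies between 1703 and 2732 CPM throughout.

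Set against pgc-high cells, pgc-low cells had no member past a 2-fold limit in any library (0 of 7), while 24.0% of all genes tested were past it among unsexed, 9.95% among female and 5.7% among male cells. The limit took in genes that reached 20 CPM in either class and 50 UMIs over both. Hsp23 in pgc-low over pgc-high cells gave ratios of 1.07 (95% interval 1.05 to 1.09) for unsexed, 1.49 (1.42 to 1.56) for female and 1.47 (1.43 to 1.51) for male cells. Hsp26 gave 1.15, 1.42 and 1.53 in the same order. Both were thus higher in the later, pgc-low cells of each library, but with scaling by trimmed means (TMM) their unsexed log2 ratios turned to -0.12 and -0.01, and in a comparison of 3 equal ranks by pgc to -0.36 and -0.14. Hsp27 gave 0.637 (0.624 to 0.650) for unsexed, 0.905 for female and 0.895 for male cells. Hsp68 ratios were 0.845, 0.955 and 0.901, Hsp83 ratios 0.868, 1.02 and 1.09, Hsc70-4 ratios 1.01, 0.953 and 0.950, and DnaJ-1 ratios 1.02, 1.08 and 0.981. TMM moved all log2 ratios of this comparison down by 0.22 in the unsexed library, which also turned Hsc70-4 and DnaJ-1 there to -0.20 and -0.18, and by 0.08 and 0.06 in the female and male libraries, where it turned Hsp83 in the female library to -0.05.

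The pgc-middle cells of the unsexed library stood apart, a comparison added after the levels were seen. Over pgc-high cells, 2 of 7 members were past the 2-fold limit, both higher, where 7.01% of all genes tested were past it and 2.7% on the higher side. They were Hsp68 at 2.36 (2.23 to 2.50) and Hsp23 at 2.14 (2.11 to 2.18). Hsp26 was at 1.91 (1.89 to 1.93) and DnaJ-1 at 1.70 (1.63 to 1.76). Hsp83, Hsp27 and Hsc70-4 were at 1.13, 1.09 and 1.07. TMM moved these log2 ratios down by 0.12, which left Hsp68 alone past the limit and turned Hsc70-4 to -0.03. The pgc-low over pgc-middle ratios of Hsp68 and Hsp23 were 0.359 and 0.499, also past the limit, as were 6.43% of all genes tested there, 3.29% on the lower side. In the female and male libraries no member passed in pgc-middle over pgc-high cells, against 3.01% and 1.27% of genes tested, and the largest ratios were those of Hsp23, at 1.25 and 1.35.

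Ranking all germ cells of a library by pgc and cutting them into 8 equal parts showed where along pgc the members were high. In the unsexed library Hsp23 had 1203, 1364, 1543, 2203, 3028, 3054, 1904 and 644 CPM from the eighth with the lowest to the eighth with the highest pgc. Hsp68 had 78.5, 88.8, 101, 161, 283, 285, 178 and 40.8 CPM over the same cells. Hsp26 reached 6483 CPM in the fifth eighth and had 2056 CPM in the last. DnaJ-1 reached 515 CPM in the fifth and had 228 CPM in the last. Hsp27, Hsp83 and Hsc70-4 reached 1469, 3459.6 and 2362 CPM in the sixth eighth and had 1111, 2620.2 and 2049 CPM in the last. Thus all 7 measured members had their maximum in the fifth or sixth eighth, where pgc itself averaged 251 and 783 CPM. The minimum lay among the cells richest in pgc for 5 of them, and among cells without pgc for Hsp27 and Hsp83. The shares of all genes with a maximum or minimum there were not computed, so neither pattern is shown to be particular to the members. The eighths with the lowest pgc share a level of 0 and are ordered among themselves by their place in the file only. Other heat-inducible transcripts moved with them: the Hsp70 gene Hsp70Bc had 19.7 CPM in the first, 102 CPM in the sixth and 14.4 CPM in the last eighth, and lncRNA:Hsromega, the heat-inducible noncoding RNA of the omega speckles, had 333, 487 and 140 CPM there. In the male library Hsp23 had 3467 CPM in the fourth eighth, 3473 CPM in the fifth and 2427 CPM in the last. In the female library it had 2934, 2651, 2450 and 3092 CPM in parts 1 to 4 of the 8. It had 2358 CPM in part 5 and 1818 CPM in the last part. In the female and male libraries parts 1 to 4 held only cells without pgc, so their order is not one of pgc. Part 5 held 60 such cells of 134 in the female and 475 of 547 in the male library. Differences among parts 1 to 4 there thus give no position along pgc. The fifth eighth averaged just 26.1 CPM of pgc in the female and 15.4 CPM in the male library, so its position is unlike that in the unsexed library.

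**Figure D2:**
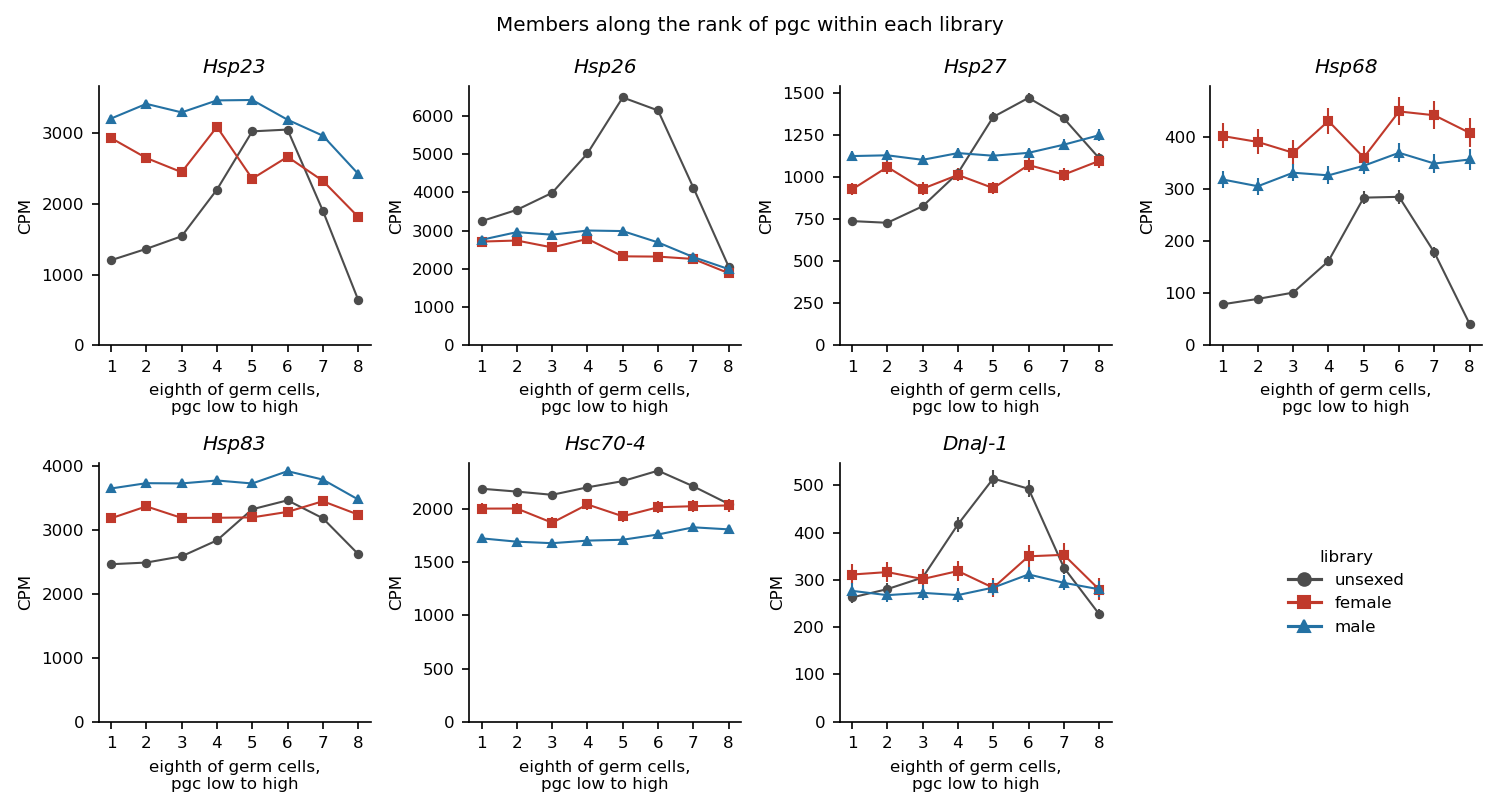
CPM of the 7 measured members (vertical axes from 0) in 8 equal parts of each library's germ cells, ranked from low to high pgc (horizontal axes), with exact 95% Poisson intervals. In the unsexed library all 7 are highest in the fifth or sixth eighth, with the largest ratios to the last eighth for Hsp23 (3054 CPM in the sixth and 644 CPM in the last) and Hsp68 (285 and 40.8 CPM).

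Set against other cells, germ cells had higher Hsp26, Hsp27 and DnaJ-1 in the unsexed library and lower levels of the same 3 genes in the female and male libraries. In the unsexed library 2 of 7 members were past the 2-fold limit, both higher in germ cells, where 48.7% of all genes tested were past it and 32.8% were past it on the higher side. These were Hsp83, with 2852 CPM in germ cells and 1259 CPM in other cells (ratio 2.27, 2.13 to 2.42), and Hsp26, with 4279 CPM in germ cells and 1986 CPM in other cells (2.15, 2.05 to 2.27). Hsp27 was at 1.85 and DnaJ-1 at 1.61, Hsp23 at 1.05, Hsp68 at 0.976 and Hsc70-4 at 0.878. In the female and male libraries 1 of 7 members was past the limit, against 50.6% of genes tested in each, and 15.0% and 15.1% on the lower side. It was Hsp23, lower in germ cells, with 2561 CPM against 5955 CPM in female cells (0.430, 0.426 to 0.434) and 3207 CPM against 7589 CPM in male cells (0.423, 0.418 to 0.428). Hsp26 ratios were 0.726 and 0.531, Hsp27 ratios 0.843 and 0.589, Hsp68 ratios 0.724 and 0.609, DnaJ-1 ratios 0.703 and 0.701, and Hsc70-4 ratios 0.728 and 0.672. Hsp83 was the nearest to 1, at 1.05 and 0.946. The median log2 ratio over the members was 0.69, -0.46 and -0.71 in the 3 libraries, against 0.49, 0.57 and 0.54 over all genes tested. TMM moved the log2 ratios down by 0.19, 0.53 and 0.21, which turned Hsp23 in the unsexed library to -0.11 and Hsp83 in the female library to -0.45, and left no member past the limit in the unsexed library, and put DnaJ-1 in the female and Hsp26 in the male library past it on the lower side beside Hsp23. Thinning every cell to 2000 UMIs turned Hsp68 in the unsexed library to 0.32 and Hsp83 in the male library to 0.04 on the log2 scale. The somatic marker sums given above were also lower in germ cells than in other cells of each library, and their part in the ratios was not tested.

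Female and male germ cells, from libraries with the same kit version and hours, had no member past the 2-fold limit (0 of 7), where 1.07% of all genes tested were past it. Hsp68 was higher in female germ cells, with 405 CPM against 337 CPM in male germ cells (ratio 1.20, 1.17 to 1.24), as were Hsc70-4 (1.15) and DnaJ-1 (1.12). Hsp23 was lower in female germ cells, with 2561 CPM against 3207 CPM in male germ cells (0.799, 0.790 to 0.807), as were Hsp27 (0.873), Hsp83 (0.874) and Hsp26 (0.906). In pgc-low cells alone the directions were the same, from 0.806 for Hsp23 to 1.22 for Hsp68. Other cells also differed: Hsp27 gave 0.610 and Hsp26 0.662 in female over male other cells, where 2.34% of genes tested were past 2-fold. The sexes are 1 library each, and the male germ cells were sequenced to fewer UMIs per cell.

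How far stress genes were on was read from Hsp68 and the 6 Hsp70 genes, called heat-inducible here. The 6 Hsp70 genes are near-identical copies, so their counts were summed for this reading, and any value given for 1 of them by name is uncertain. Summing does not restore reads that fit several copies if the counter dropped them, so the summed Hsp70 level may be too low. The Hsp70 genes together gave 59.6, 196 and 169 CPM in unsexed, female and male germ cells. In germ cells the heat-inducible UMIs counted were therefore mostly those of Hsp68. In cells thinned to 2000 UMIs, 26.6% (25.1 to 28.1%, exact binomial) of unsexed germ cells had a heat-inducible UMI, against 22.2% (16.2 to 29.2%) of other cells. The shares were 59.8% (56.8 to 62.7%) of female germ cells, against 71.9% (70.8 to 73.0%) of other cells, and 56.4% (54.9 to 57.8%) of male germ cells, against 67.8% (64.8 to 70.6%) of other cells. Without thinning the shares were 66.0% against 32.7%, 96.0% against 85.9% and 86.5% against 74.9%, with germ cells the deeper class each time. By level, the heat-inducible genes summed to 208, 601 and 506 CPM in germ cells, against 286, 1355 and 1253 CPM in other cells. Other cells thus had the higher level in each library, and both sexed libraries had higher levels than the unsexed one.

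Among the germ cells of the unsexed library the share was highest at the middle pgc level. It was 20.7% (18.6 to 22.8%) in pgc-low, 40.3% (37.0 to 43.7%) in pgc-middle and 23.1% (20.3 to 26.0%) in pgc-high cells there. This is the same order as the levels of Hsp68, which is itself among the genes counted, so the likeness was partly fixed in advance. In the female library the share was 58.6%, 62.9% and 61.3%, and in the male library 54.3%, 59.8% and 60.6%, and the intervals of the 3 female shares overlapped. With the Hsp70 genes alone, which leaves out Hsp68, the unsexed shares were 6.11%, 16.6% and 8.59% in germ cells by pgc level. Hsp70 alone marked 9.61% of unsexed germ cells and 13.5% of other cells, 24.4% of female germ cells and 59.3% of other cells, and 25.7% of male germ cells and 53.4% of other cells.

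The members were then compared between germ cells with and germ cells without a heat-inducible UMI, with a member's own UMIs left out of the split. In the unsexed library Hsp23 had 3200.2 CPM in the 849 cells with and 1343 CPM in the 2345 cells without (ratio 2.38, 2.30 to 2.47). Hsp26 had 7020.0 and 3408 CPM in the same cells (2.06, 2.01 to 2.11). Hsp68, split by the Hsp70 genes alone, had 394 CPM in 307 cells with and 132 CPM in 2887 cells without (2.99, 2.58 to 3.46). DnaJ-1 gave 1.66, Hsp27 gave 1.46, Hsp83 gave 1.26 and Hsc70-4 gave 1.05. So 3 of 7 members were past 2-fold, where 0.927% of genes tested were past it. This split pooled the pgc levels, which differed in their share of cells with a heat-inducible UMI. Within pgc-low, pgc-middle and pgc-high cells Hsp23 gave 2.06, 1.82 and 3.14, and Hsp26 gave 1.77, 1.80 and 2.43. Hsp68 gave 2.28, 2.15 and 3.94 there, and DnaJ-1 gave 1.38, 1.41 and 2.03. In the female library the ratios over all germ cells were 1.58 for Hsp23, 1.36 for Hsp26, 1.34 for Hsp68, 1.29 for DnaJ-1, 1.26 for Hsp27, 1.13 for Hsp83 and 0.996 for Hsc70-4. In the male library they were 1.55, 1.44, 1.62, 1.28, 1.28, 1.09 and 0.989 for the same genes. None was past 2-fold there, against 0.639% of female and 0.0596% of male genes tested, the latter 3 of 5033 genes. These shares, and the unsexed one, come from a split in which no gene's own UMIs were left out. Heat-inducible genes tested there passed by construction, so the shares are not a like comparison for the members. Hsc70-4 was the member that differed least between the cells with and the cells without in all 3 libraries.

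Other cells showed larger ratios in the same split. Hsp26 was 7.25-fold higher in unsexed other cells with a heat-inducible UMI, with 4987 CPM in 38 cells with and 688 CPM in 133 cells without. It was 3.96-fold and 3.11-fold higher in female and male other cells. Hsp23 gave 3.70, 3.25 and 2.80, Hsp27 gave 1.76, 2.99 and 2.81, and DnaJ-1 gave 4.03, 2.54 and 2.93. Hsp68, split by the Hsp70 genes alone, had 609 CPM in 23 unsexed other cells with and 50.7 CPM in 148 without, the widest gap among the members, and gave 2.87 in female and 2.99 in male other cells. Hsp83 gave 1.91, 1.46 and 1.55, and Hsc70-4 gave 1.27, 1.05 and 1.12. Past 2-fold were 10.4%, 1.39% and 2.42% of genes tested in splits that left out no gene's own UMIs. There too, heat-inducible genes tested passed by construction.

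**Figure D3:**
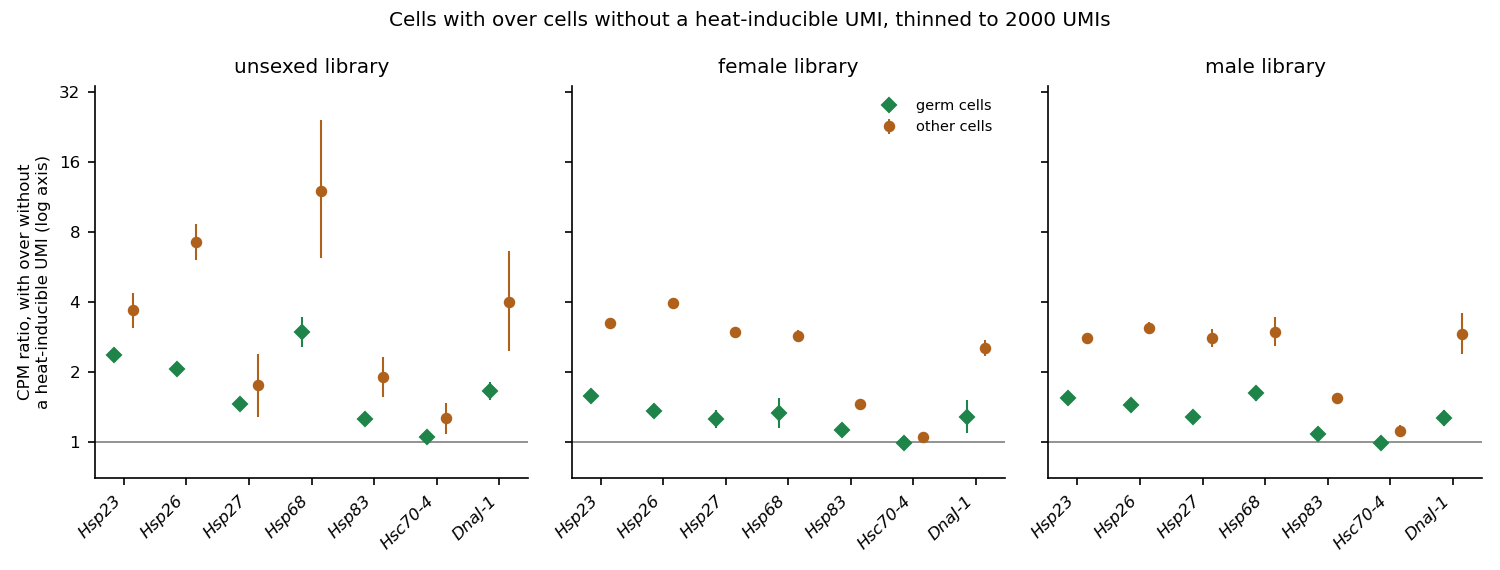
Ratio of CPM in cells with over cells without a heat-inducible UMI for the 7 measured members (vertical log axis, with exact 95% intervals), in germ cells and in other cells of each library, all thinned to 2000 UMIs. Hsc70-4 lies between 0.989 and 1.27 throughout, and in the unsexed library Hsp26 is at 2.06 in germ cells and 7.25 in other cells, while Hsp68 in other cells, at 609 CPM with and 50.7 CPM without, lies above both. Hsp68 is split by the Hsp70 genes alone.

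To look at the members apart from the heat-inducible genes, cells without a heat-inducible UMI were compared with each other. A member's own UMIs were again left out of the split. For Hsp68 the cells were therefore those without an Hsp70 UMI, a larger set (2887 germ and 148 other cells in the unsexed library, against 2345 and 133). Whether heat-inducible UMIs arose in the dissociation was not tested, since all 3 libraries went through it. Hsp26 had 3408 CPM in unsexed germ cells and 688 CPM in unsexed other cells without such a UMI, a ratio of 4.95 (4.28 to 5.76). It had 1997 CPM against 1162 CPM in female cells (1.72, 1.62 to 1.82) and 2210.4 CPM against 2018 CPM in male cells (1.10, 1.03 to 1.16). Hsp26 was thus higher in germ cells in all 3 libraries here, whereas over all cells it was lower in the female and male germ cells. Hsp27, DnaJ-1 and Hsp68 also turned in the female and male libraries. Hsp27 gave 2.01, 1.70 and 1.20 in the 3 libraries, and DnaJ-1 gave 2.41, 1.26 and 1.49. Hsp68 gave 2.60, 1.31 and 1.13, and the interval of its male ratio (0.990 to 1.29) includes 1. Hsp83 gave 2.44, 1.28 and 1.34. Hsp23 was lower in the germ cells of both sexed libraries, at 0.791 and 0.740, and was at 1.35 in the unsexed library. Hsc70-4 gave 0.949, 0.768 and 0.739. Past 2-fold were 5 of 7 members in the unsexed library and 0 of 7 in each sexed library, against 48.4%, 49.1% and 47.3% of genes tested. The median log2 ratio of all genes tested was 0.54, 0.51 and 0.61 there, and the ratios above it were those of 5 unsexed members (all but Hsp23 and Hsc70-4) and of Hsp26 and Hsp27 in the female library. A cell without such a UMI at this depth may still hold heat-inducible RNA, and free RNA from other cells was not measured.

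**Figure D4:**
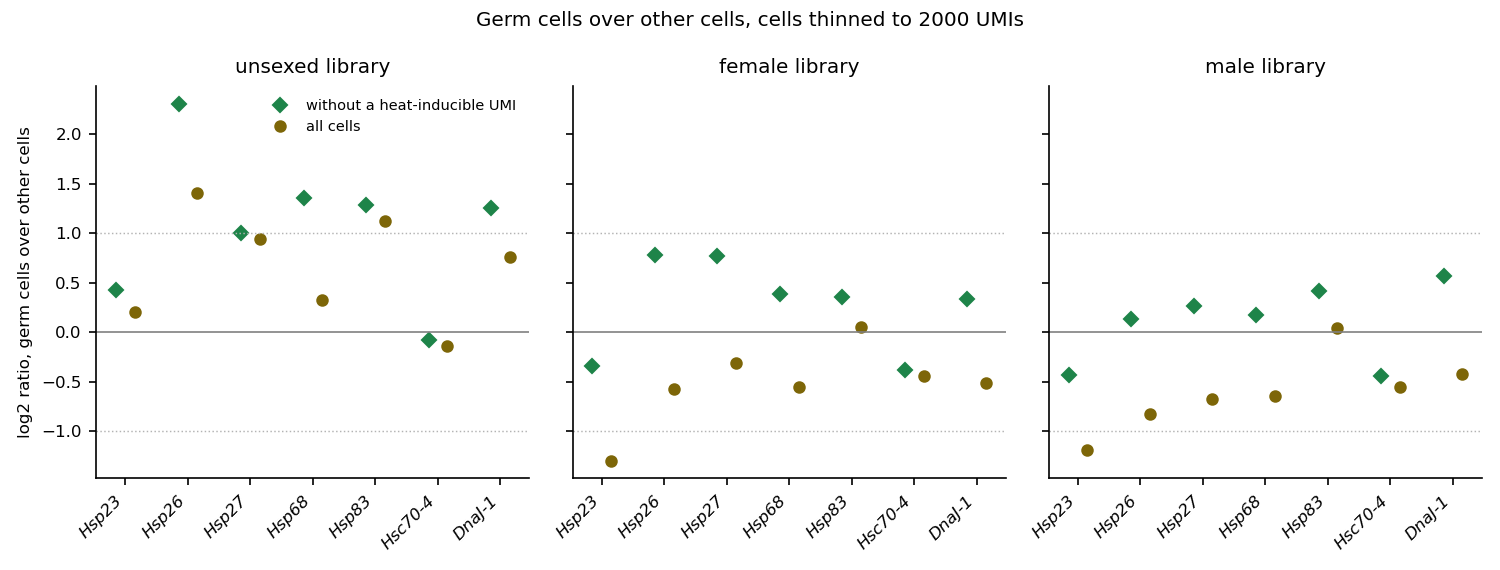
Log2 ratio of CPM in germ cells over other cells (vertical axes, 0 means equal, dotted lines mark 2-fold) for the 7 measured members, in cells without a heat-inducible UMI and in all cells, each thinned to 2000 UMIs. In the female and male libraries Hsp26, Hsp27, Hsp68 and DnaJ-1 lie above 0 in cells without such a UMI and below 0 in all cells, with Hsp26 at 0.78 and -0.58 in the female library. For Hsp68 the cells without are those without an Hsp70 UMI.

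Among unsexed germ cells without a heat-inducible UMI, Hsp23, Hsp26, Hsp68 and DnaJ-1 were again highest at the middle pgc level. There Hsp23 had 2149 CPM in 509 pgc-middle cells and 971 CPM in 681 pgc-high cells (2.21, 2.07 to 2.37). Hsp68, in cells without an Hsp70 UMI, gave 1.99 (1.65 to 2.41). DnaJ-1 gave 1.92 (1.66 to 2.23) and Hsp26 gave 1.81 (1.73 to 1.89). Hsp83, Hsp27 and Hsc70-4 gave 1.07, 0.987 and 0.983. So 1 of 7 members was past 2-fold, against 8.44% of genes tested. Male Hsp23 gave 2.05 (1.84 to 2.29) in pgc-middle over pgc-high cells without such a UMI, also past 2-fold, against 6.2% of genes tested, and female Hsp23 gave 1.46 (1.11 to 1.93). In pgc-low over pgc-high cells without such a UMI, Hsp23 gave 1.24, 1.77 and 2.04 in the 3 libraries and Hsp27 gave 0.614, 0.820 and 0.786, with 29 female pgc-high cells in that split.

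Members differed in how unevenly single cells held them. The variance over the mean of UMIs in thinned germ cells is 1 for pure counting noise and tends to grow with the mean, which in the unsexed library was 8.74 UMIs for Hsp26, 5.71 for Hsp83, 0.703 for DnaJ-1 and 0.314 for Hsp68, so its order over genes partly follows their level. It was 1.13, 1.15 and 1.12 for Hsc70-4 in the unsexed, female and male libraries and 1.21, 1.08 and 1.10 for DnaJ-1. The ratio was 1.45, 1.62 and 1.65 for Hsp83, 1.69, 1.40 and 1.58 for Hsp27 and 1.83, 1.39 and 1.36 for Hsp68. Hsp23 gave 4.51, 3.61 and 4.36 and Hsp26 gave 6.66, 2.52 and 3.59. In other cells these 2 genes were more uneven, at 13.6, 9.79 and 9.56 for Hsp23 and 32.5, 11.3 and 15.1 for Hsp26. Per cell, Hsp26 ran from 646 CPM at the 5th percentile through a median of 3174 to 10846 CPM at the 95th percentile of unsexed germ cells. Across germ cells of a library Hsp23 and Hsp26 had Spearman correlations of 0.74 (3194 cells), 0.52 (1072 cells) and 0.62 (4372 cells), all cells of a library sharing its preparation. Hsc70-4 had correlations of at most 0.08 in size with every other member.

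Other cells were grouped by marker genes to see whether the members depended on cell type. A cell entered a class if it had UMIs for at least 3 markers of its list and a larger part of that list than of any other. In the female library 4232 of 6500 other cells fell into a class and 9 classes had at least 50 cells, in the male library 524 of 1221 cells and 4 classes, and in the unsexed library no class was that large. Of the members, 5 of 7 differed by at least 2-fold between the highest and the lowest female class, as did 85.4% of genes tested. Hsp26 had 7124 CPM in the haemocyte class (160 cells) and 2274 CPM in the class of fusion-competent myoblasts (924 cells). Hsp27, Hsp68 and Hsp83 were highest in the neuron class (75 cells), with 2120.1, 1001 and 4711 CPM, and lowest in the classes of early mesoderm (858 CPM), fusion-competent myoblasts (410.4 CPM) and amnioserosa (2256 CPM). Hsc70-4 had 3541 CPM in the neuroblast class and 1566 CPM in the haemocyte class. Hsp23 ranged from 5385 to 7441 CPM, which is above the 2561 CPM of female germ cells in each class, and DnaJ-1 from 389 to 496 CPM, above the 314 CPM of germ cells. In the male library no member reached 2-fold (0 of 7), against 52.8% of genes tested. Its 4 classes were neuroblasts, fusion-competent myoblasts, early mesoderm and epidermis. The neuron, haemocyte and amnioserosa classes were thus not compared there, and the male and female counts are over unlike sets of classes. Marker classes are ranges of marker counts and not clusters: 85.3% of the female neuron class had just 3 markers, and cells of the female neuroblast class had a median of 15 UMIs of the neuron list against 11 of their own.

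**Figure D5:**
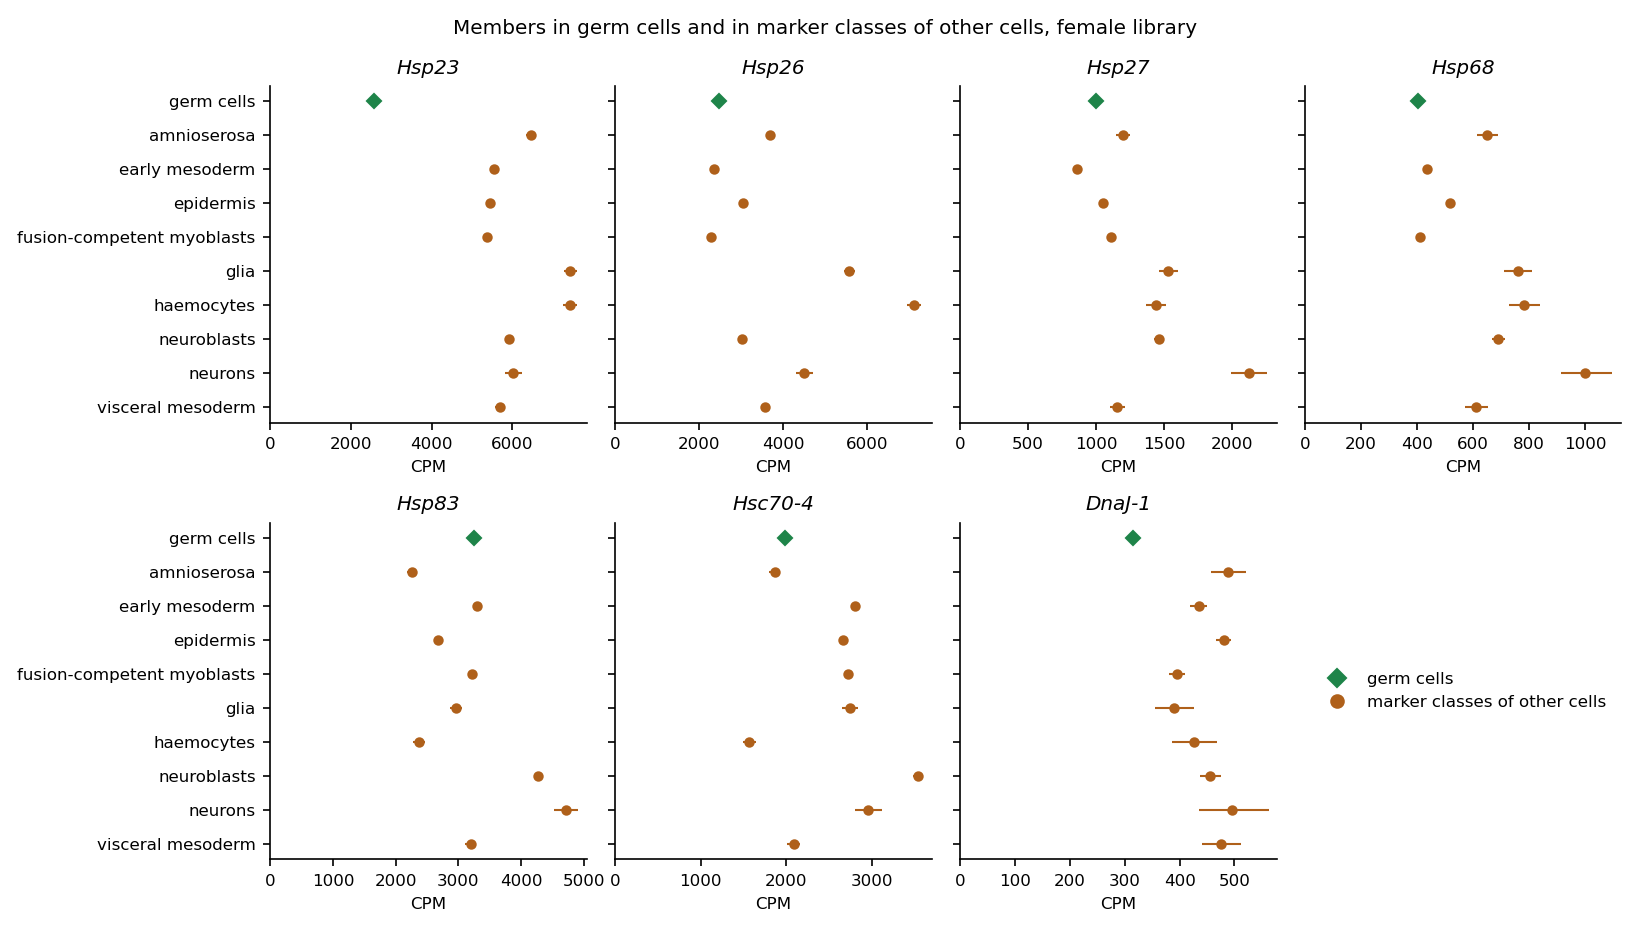
CPM of the 7 measured members (horizontal axes from 0) in female germ cells, top row, and in 9 marker classes of other cells of the female library, with exact 95% Poisson intervals. Hsp23 lies above the germ cell value of 2561 CPM in every class, as do Hsp68 and DnaJ-1, while Hsp26, Hsp27, Hsp83 and Hsc70-4 have classes on both sides of the germ cell value. For Hsp68 the interval of the lowest class, fusion-competent myoblasts at 410 CPM (395 to 426), includes the germ cell value.

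Other chaperone genes were taken from a list of 73 names, of which 59 are in the matrices and 40 to 43 passed the size filter. In germ cells over other cells 18 were past 2-fold higher and 8 lower among unsexed cells, where 32.8% and 15.9% of all genes tested were. The counts were 12 and 10 among female cells, where 35.6% and 15.0% of all genes tested were, and 14 and 10 among male cells, where 35.5% and 15.1% were. Their median log2 ratios were 0.91, 0.63 and 0.66, against 0.49, 0.57 and 0.54 over all genes tested. With TMM the counts were 15 and 9, 7 and 13, and 9 and 10. Among the 5 largest ratios in each library were those of HIP, a cofactor of Hsp70, at 6.11, 13.8 and 6.61, Fkbp59, a partner of Hsp90, with 8.36, 5.24 and 3.74, and mrj, a DnaJ protein, with 5.95, 8.21 and 7.76. STUB1, a ubiquitin ligase that works with Hsp70, gave 5.27, 15.9 and 16.8. The smallest ratios included those of the small heat shock gene l(2)efl (0.0501, 0.0399 and 0.0724), Gp93, the Hsp90 of the endoplasmic reticulum (0.207, 0.162 and 0.173), Hsp67Bc (0.329, 0.142 and 0.127) and lncRNA:Hsromega (0.220, 0.378 and 0.290). The relatives of the members thus lay on both sides. In pgc-low over pgc-high cells 4 were higher and 1 lower among unsexed, 1 and 1 among female, and 1 and 0 among male cells, where 13.5% and 10.5%, 4.63% and 5.32%, and 1.75% and 3.96% of all genes tested were. The 4 higher ones in the unsexed library were CG2887 (20.9, 12.6 to 37.6), Hsp67Bc (3.37), Cdc37 (2.38), the Hsp90 partner of kinases, and Trap1 (2.04), the mitochondrial Hsp90, while stv, a cofactor of Hsp70, was lower (0.166). In the female library Hsc70-5 was higher (2.11) and STUB1 lower (0.474), and in the male library unc-45 was higher (2.40).

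A list of 20 genes of stress, cell death and early response was set beside them. In pgc-low over pgc-high germ cells 2 were higher and 4 lower among unsexed, 2 and 5 among female and 2 and 4 among male cells, of 11 tested in each. Of all genes tested 13.5% were higher and 10.5% lower, 4.63% and 5.32%, and 1.75% and 3.96%. The list had median log2 ratios of -0.54, -0.49 and -0.46 against 0.14, 0.07 and 0.04 over all genes tested. With TMM the counts were 1 and 5, 1 and 5, and 2 and 4. The cell death genes rpr and hid were lower in pgc-low cells, at 0.215 and 0.409 for unsexed, 0.199 and 0.239 for female and 0.285 and 0.359 for male cells. The glutathione transferase gene GstD1 was lower as well (0.0420, 0.0570 and 0.0875). Thor, the translation repressor 4E-BP, was lower in the unsexed library (0.479) and higher in the female and male libraries (2.39 and 2.62). Also higher in pgc-low cells were Keap1 (2.92) and Jra (2.12) in the unsexed library and cnc in the female and male libraries (2.01 and 2.47). In germ cells over other cells 2 were higher and 4 lower, 5 and 5, and 3 and 5, of 11, 12 and 12 tested, with TMM counts of 2 and 4, 1 and 5, and 2 and 5. Of all genes tested 32.8% were higher and 15.9% lower, 35.6% and 15.0%, and 35.5% and 15.1%. The list's median log2 ratios were 0.04, 0.13 and -0.03, against 0.49, 0.57 and 0.54 over all genes tested. The early response gene kay was lower in female and male germ cells (0.245 and 0.270), and rpr was lower in all 3 libraries (0.472, 0.457 and 0.306). Higher in all 3 was cnc (5.12, 2.51 and 2.64). In the female and male libraries hid (3.41 and 3.22) and Xrp1 (2.55 and 2.25) were higher, while hid was lower in the unsexed library (0.497).

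Over the 12 library and class points (3 pgc levels and other cells in 3 libraries), the genes whose log2 levels ran most like a member's were found among 6086 genes. For Hsp83 these were Sgt1 (r = 0.96) and CHORD (r = 0.95), and for Hsp68 MED1 (r = 0.94) and Hsp70Ab (r = 0.92), whose counts are uncertain as for each Hsp70 copy. For Hsc70-4 zld is given (r = 0.94), for Hsp23 they were SsRbeta (r = 0.91) and w (r = 0.89), and for Hsp27 Sirup (r = 0.91) and CG1416 (r = 0.85). For Hsp26 they were Thor (r = 0.82) and ste24a (r = 0.82), and for DnaJ-1 Hsp26 (r = 0.76) and gt (r = 0.73). The 12 points share 3 libraries, so these values describe likeness only.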

How the data were processed

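The authors deposited count matrices of UMIs per gene and cell for 3 libraries, made with Cell Ranger on BDGP6, per the submitters' processing notes, and written by 10x software 3.0.1 (unsexed) and 3.1.0 (female, male), per the file headers. Whether counting used strand is not given in the sources used here. The authors also deposited dense count tables of the sexed libraries, 1.19 and 2.52 times deeper for the same cells for a reason not stated, used as an alternative. Total counts per library were 58378567 (unsexed), 109431813 (female) and 47345241 (male) UMIs. Libraries shared 1 (unsexed and female), 0 (unsexed and male) and 17 (female and male) cell barcodes.

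Cells entered with at least 1000 UMIs, 500 genes and no more than 20% mitochondrial UMIs. Mitochondrial genes, with 0 UMIs in the sexed libraries, were left out of CPM. Scrublet in scanpy 1.11.5 marked 26 of 3771 unsexed, 442 of 10275 female and 14 of 6687 male cells as doublets. The male number was too few for a working caller, and 1 rule was used for all libraries. The highest scores were removed at 0.8% per 1000 cells in each library (114, 845 and 358 cells), leaving 3657, 9430 and 6329. UMIs were summed per class and library and scaled to CPM, and log2 ratios used a pseudocount of 1. Intervals at 95% are exact Poisson, Clopper-Pearson or conditional ones and cover counting error only. Genes with at least 20 CPM in 1 class and 50 UMIs over both were called at 2-fold. No test or p-value is given. The caller was tested on simulated data. TMM factors came from edgeR 4.0.16 and were an alternative only. Cells were thinned to 2000 UMIs for shares and splits. Gene positions come from the Ensembl 115 annotation of BDGP6. The genes named are the members, the 2 genes most like each in pattern (1 of them is not reported here), the heat-inducible genes and, of the chaperone and stress lists, genes among the 5 largest ratios in each direction past the limit. The members and lists were chosen with earlier results of these data known.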

Additional observations from a re-analysis of the deposited data

Results flagged for a closer look

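For the members below, at least 1 library had a ratio above 1 and at least 1 a ratio below 1, each with a counting interval clear of 1. The difference between libraries was not tested, since each is a single library, and hours, kit version and genotype differ together between the unsexed and the sexed ones. For germ cells over other cells, Hsp26 gave 2.15 among unsexed, 0.726 among female and 0.531 among male cells. Hsp27 gave 1.85, 0.843 and 0.589, DnaJ-1 gave 1.61, 0.703 and 0.701, and Hsp83 gave 2.27, 1.05 and 0.946, in the same order. In thinned cells without a heat-inducible UMI these 4 genes were higher in germ cells in each library, with Hsp26 at 4.95, 1.72 and 1.10. Of all genes tested 66.6%, 65.8% and 70.1% were also higher there, with median log2 ratios of 0.54, 0.51 and 0.61, and in the male library all 4 genes lay below that median. For pgc-low over pgc-high germ cells, Hsp83 gave 0.868 among unsexed, 1.02 among female and 1.09 among male cells. The interval of the female value was 0.982 to 1.05, which includes 1.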

How the results depend on the processing

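No paired analysis was possible because each group has 1 library. Counts of members past the limit moved as follows, each out of 7. In pgc-low over pgc-high cells (0 in every library), a limit of 1.5-fold gave 1 in the unsexed and 1 in the male library, thinning to 2000 UMIs gave 1 in the female, and thinned male cells without a heat-inducible UMI gave 1. In unsexed pgc-middle over pgc-high cells (2), the count was 1 with TMM, with the mean of per-cell CPM and in thinned cells without a heat-inducible UMI, 4 at 1.5-fold, and 0 at 4-fold, after thinning and with 3 equal ranks by pgc. In the male library (0) it was 1 with heat-inducible cells removed, thinned or not. In germ cells over other cells, the unsexed count (2) was 0 with TMM, 4 at 1.5-fold, 0 at 4-fold and 5 in thinned cells without a heat-inducible UMI. The female count (1) was 2 with TMM, 0 at 4-fold and 0 in thinned cells without such a UMI. The male count (1) was 2 with TMM, 4 at 1.5-fold, 0 at 4-fold, and 0 with heat-inducible cells removed, thinned or not. The stress list in female germ cells over other cells had 6 genes past the limit with TMM, against 10 otherwise. Libraries with a lower share of heat-inducible cells among germ cells numbered 0 without thinning, against 2 with it. Between male marker classes 1 member passed with at least 2 markers, and 1 after thinning, against 0 otherwise. The cause of these moves was not tested, except that a higher limit passes fewer genes and a lower one more by construction. Of 1169 recomputed log2 ratios of single members, 1103 kept their sign and 66 did not, and none of the 66 had passed the limit. The 1169 include other fold limits, size filters and pseudocounts, which cannot change the sign of a ratio, so the share kept is partly fixed in advance. Removing cells with a heat-inducible UMI left under 50 cells in the female library for both pgc comparisons, and unthinned for germ cells over other cells and for the sexes, and no dense table of the unsexed library was used here, so these were not run. The pgc-middle comparison, the thinned comparisons without a heat-inducible UMI, the split by Hsp70 genes alone and TMM for the 2 lists were added after the data were seen. The number of cells limits the female pgc-high class: without a heat-inducible UMI 29 of 75 were left, and DnaJ-1 in pgc-low over pgc-high cells was 1.78 there with an interval of 0.918 to 3.97.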
